A study of Rattus norvegicus with 54 samples.

Results

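This comparison covers 6 of the 54 RNA sequencing libraries of a study of rat cortical neurons: 3 untransfected cultures sampled at 24 h in magnesium-free medium, and 3 untransfected cultures sampled at 24 h in medium with magnesium. The libraries were found by their labels and paired by the culture number, 1 to 3, that the labels give. All 54 libraries were made from cortex at embryonic day 18, labelled as neurons. They form 18 groups of 3, from untransfected cultures and cultures given an adeno-associated virus (AAV) carrying GFP, or rMBD3 with GFP, in both media at 2, 6 and 24 h. The construct names include SYN. The untransfected cultures carry no construct, and the labels call the magnesium-free condition epileptic and the other standard. No strain or sex is given, and nothing states whether a culture number stands for separate animals. In fits without a term for culture, the p-values therefore measure spread between cultures. In fits with such a term (a block), they measure the spread left after culture differences are taken out. Either spread is pooled over all 54 libraries unless fewer are named.

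Magnesium ions block the pore of NMDA-type glutamate receptors near the resting potential of a neuron. Removing them from the medium frees these receptors to pass current, and cultured cortical networks then fire in prolonged bursts. The treatment is widely used as a cell culture model of seizure activity, and lasting activity of this kind is known to alter transcription in neurons. The question posed by this pair of groups is which transcripts differ at 24 h in cells that received no virus.

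The 6 libraries held 21838370 to 31912791 counts (median 25897966.5), and all 54 held 14448927 to 39691105. A count of 3 in 1 of the 6 libraries equals 0.094 to 0.153 CPM (counts scaled to the size of the library), a limit that covers counting error only because the reads carried no molecular identifiers. The table names genes by Ensembl identifier, and 0 of its 30560 identifiers could be matched to a symbol. Marker genes of neurons and of other cell types were therefore not examined, and the labelled cell type was not checked. Genes are described below by identifier, genomic span and chromosome. In bulk RNA, fewer cells of a type and less RNA per cell cannot be told apart.

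The libraries of culture 3 went against their pairing. Across 12561 genes with a mean log2 CPM of at least 1, the median absolute log2 difference between the media was 0.358 in culture 1, 0.153 in culture 2 and 0.577 in culture 3. The magnesium-free library of culture 3 lay closer to both libraries of culture 2, at 0.193 and 0.217, than to its own partner. The magnesium library of culture 3 lay closest to the magnesium-free library of culture 1, at 0.354. Deviations from the group means correlated across genes at 0.33 between the libraries of culture 1, 0.56 in culture 2 and -0.17 in culture 3. Libraries of unlike culture number averaged -0.12. Culture 3 also had the lowest value of the cultures in the other comparisons. It was 0.02 at 2 h and 0.21 at 6 h in untransfected cultures, and 0.14 in GFP and 0.35 in rMBD3 cultures at 24 h. Of the variance of log2 CPM over the 6 libraries, culture number took 55.63% (2 degrees of freedom), medium 12.67% (1) and the remainder 31.7% (2). Each source takes a share by its degrees of freedom alone, so 12.67% is not a measure of a medium effect. A mix-up of samples or of culture numbers at 24 h cannot be told apart from a true difference of culture 3 in these files, and each within-culture value for culture 3 assumes that the labels are right. The edgeR calls between the media, and the class medians of genes over 200 kb and of mitochondrial genes, are given with and without culture 3. The DESeq2 calls and the correlations with other comparisons are not given without it.

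**Figure D1:**
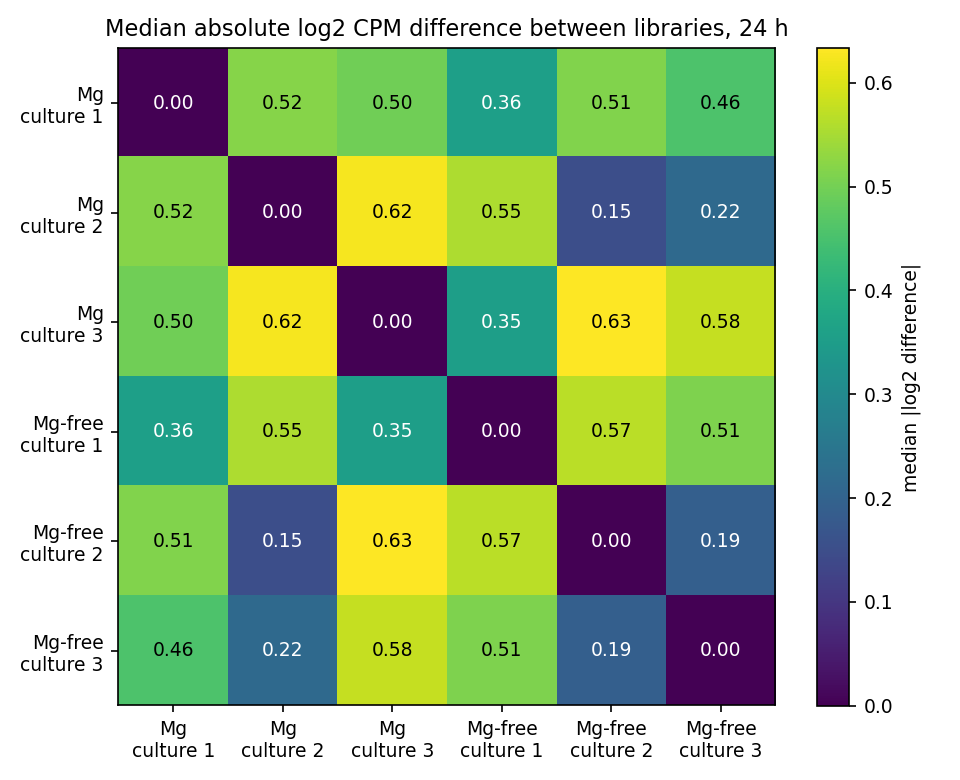
Median absolute difference in log2 CPM between each pair of the 6 libraries, over 12561 genes; both axes list the libraries by medium and culture, and brighter cells are farther apart. Both libraries of culture 2 and the magnesium-free library of culture 3 form a close trio at 0.15 to 0.22, while the magnesium library of culture 3 is 0.58 from its partner.

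No gene passed an adjusted p-value of 0.05 between the media at 24 h in untransfected cultures, 0% of the 17172 genes tested (edgeR quasi-likelihood test, 18-group model over 54 libraries). The smallest adjusted p was 0.6015. That model pools the spread of all groups, and the groups compared here were not typical. Among genes with a mean log2 CPM of at least 1, the median SD was 0.459 in the magnesium group and 0.345 in the magnesium-free group. The first was the largest of the 18 groups, and the smallest was 0.166. At an unadjusted p under 0.05 there were 948 genes, of which 736 were lower in magnesium-free medium (4.29% of the genes tested) and 212 were higher (1.23%). With no effect at all, a share of about 0.05 of the genes tested would fall under that p. DESeq2 called 2 genes, both lower, and neither had a mean log2 CPM above 1.49. The 2 media did not overlap in 285 genes that were lower without magnesium (1.66%) and in 286 that were higher (1.67%). Some genes would separate the media in this way with no effect at all.

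The call turned on how culture was handled. A block for culture number gave 0 genes, with 1486 at an unadjusted p under 0.05. A block for each culture number at each time point called 24 genes, 23 lower (0.134% of those tested) and 1 higher (0.00582%). Without culture 3 that fit called 0 genes, and without culture 1 it called 627, of which 546 were lower. With no block, leaving out culture 1 gave 264 genes (236 lower and 28 higher), leaving out culture 2 gave 1, and leaving out culture 3 gave 0, with 442 at an unadjusted p under 0.05. Fitted on the 18 libraries of 24 h alone, the data gave 0 genes with a culture block and 0 without one (635 and 223 at an unadjusted p under 0.05). The 6 libraries alone also gave 0 either way (150 and 51).

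The size of the medium difference varied from culture to culture. At least a 2-fold lower level in magnesium-free medium was found for 6.71% of the 12561 genes in culture 1, 1.15% in culture 2 and 16.93% in culture 3. At least a 2-fold higher level was found for 4.14%, 1.68% and 7.92%. Culture 3 had the most such genes in both directions, and culture 2 the fewest. The cultures did not share these differences: across genes, which are not independent replicates, the log2 differences of cultures 1 and 2 correlated at -0.04, those of cultures 1 and 3 at -0.26, and those of cultures 2 and 3 at -0.02. These pairs share no library. The corresponding values were 0.23, 0.25 and 0.48 in GFP cultures at 24 h, -0.11, 0.02 and 0.02 in rMBD3 cultures at 24 h, 0.06, 0.16 and -0.20 at 6 h, and 0.21, -0.10 and -0.15 at 2 h. Values near or below 0 were found in each comparison but that of GFP cultures.

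About as many genes were lower as higher in all 3 cultures. Of the 17172 genes tested, 1687 (9.82%) were lower without magnesium in 3 of 3 cultures and 1568 (9.13%) were higher. These shares were 18.75% and 16.89% in GFP cultures at 24 h, 9.95% and 12.78% in rMBD3 cultures at 24 h, 14.31% and 10.43% at 6 h, and 10.55% and 12.4% at 2 h. Genes without reads in either library of a culture can enter these counts and shares, since rounding could give a difference of 0 a sign. Random signs would also give genes of either kind, so these counts alone do not show a shared response. A difference of at least 2-fold in all 3 cultures was found for 14 genes that were lower and 1 that was higher, against 112 and 3 in GFP cultures, 6 and 1 in rMBD3 cultures, 4 and 1 at 6 h, and 4 and 0 at 2 h. These are counts, and the differences between the constructs were tested gene by gene below.

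**Figure D2:**
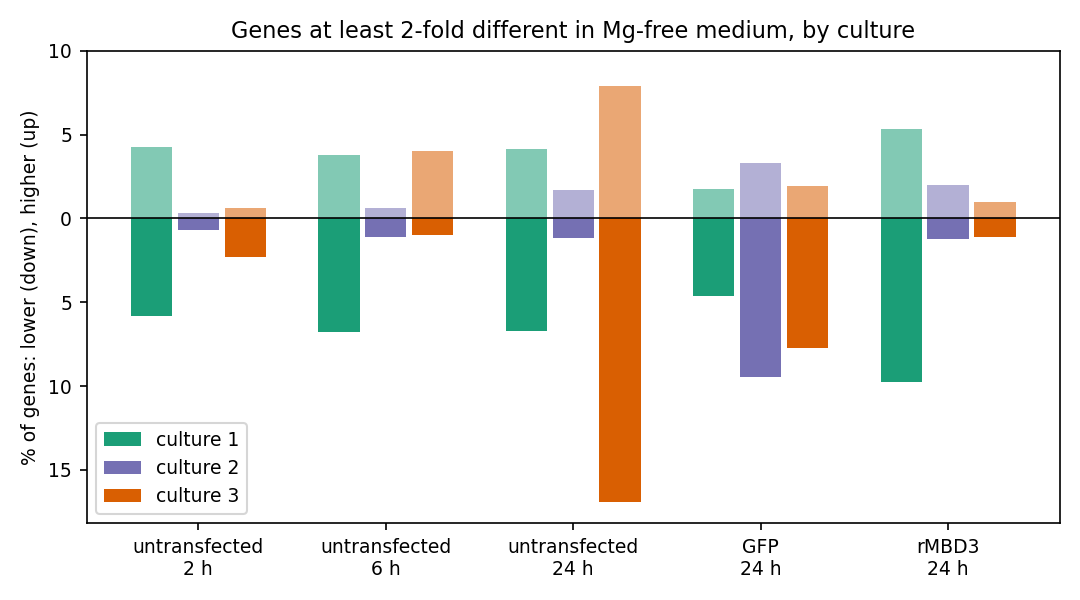
Share of 12561 genes that were at least 2-fold lower (below the line) or higher (above it) in magnesium-free medium, for each culture in the untransfected cultures at 2, 6 and 24 h and the GFP and rMBD3 cultures at 24 h. Culture 3 of the untransfected cultures at 24 h has the tallest bars, with 16.93% lower and 7.92% higher.

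Of the genes that were lower with the block per time point, ENSRNOG00000001575 had the largest fold change among those with a mean log2 CPM of at least 1 and the same direction in all 3 cultures. It lies on chromosome 11 from 27169740 to 27570645 (mRatBN7.2, minus strand), a span of 400906 bases with 4148 bases of exon. With magnesium its level was 10.06, 1.087 and 2.658 CPM in cultures 1, 2 and 3, and without magnesium it was 1.286, 0.1046 and 0.1141 CPM. Each culture was lower without magnesium, but the groups overlapped, since culture 1 without magnesium exceeded culture 2 with it. The magnesium-free libraries of cultures 2 and 3 held 3 counts each. Their magnesium partners were 10.4-fold higher (95% exact counting interval 3.22 to 53.3) and 23.3-fold higher (7.55 to 117). The fitted log2 fold change of this gene was -3.17 ± 1.15 (SE; adjusted p = 0.742, edgeR) with no block and -3.56 ± 0.73 (adjusted p = 0.0423) with the block per time point. Without culture 3 the latter was -3.03 (adjusted p = 0.878, edgeR), no longer past the threshold.

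ENSRNOG00000005574 came next under the same rule, and the other 21 lower genes are described as a set below. It lies on chromosome 8 from 29349114 to 29368404 (plus strand, span 19291 bases). Its level with magnesium was 14.59, 0.787 and 4.448 CPM in cultures 1, 2 and 3, and without magnesium 1.16, 0.314 and 0.494 CPM. The difference had the same sign in each culture, and again culture 2 with magnesium lay below culture 1 without it. With no block it had a fitted log2 fold change of -3.32 ± 1.00 (SE) at an adjusted p of 0.6015 (edgeR), and -2.88 ± 0.63 (adjusted p = 0.0481) with the block per time point. Leaving out culture 3 gave -2.71 with that block, which did not pass (adjusted p = 0.878, edgeR). A second of the 23 lower genes lies 17865 bases away on the opposite strand. The spans of these neighbours do not overlap, so no exon base is shared between them.

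The 1 gene that was higher with the block per time point was ENSRNOG00000051563, on chromosome 7 from 10202982 to 10237099 (minus strand, span 34118 bases). With magnesium it had 0.168, 0.187 and 0.102 CPM, from 5, 5 and 2 counts, and without magnesium 0.596, 1.186 and 3.575 CPM. The groups did not overlap, and all 3 magnesium libraries were near the 3-count limit. In culture 3, where the magnesium library held 2 counts, the ratio was 35 (95% exact counting interval 9.41 to 293). With no block the fitted value was 3.48 ± 0.96 on the log2 scale (SE), at an adjusted p of 0.6015 (edgeR), and with the block per time point 3.27 ± 0.67 (adjusted p = 0.0423). Without culture 3 it was 2.22 with the block per time point (adjusted p = 0.878, edgeR).

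The same gene was measured well above that limit at 6 h. ENSRNOG00000051563 had 1.97, 8.849 and 6.358 CPM with magnesium at 6 h and 0.766, 7.103 and 6.544 CPM without it. At 2 h it had 0.964, 1.855 and 0.996 CPM with magnesium and 1.889, 2.285 and 0.532 CPM without. The medium difference had no common sign over the cultures at either time.

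ENSRNOG00000016330 was the next higher gene by its unadjusted p (0.003 with no block), and it did not pass the adjusted threshold. It lies on chromosome 5 from 25590493 to 25611245 (plus strand). With magnesium it had 0.335, 1.949 and 0.460 CPM, and without magnesium 2.54, 3.418 and 1.711 CPM. Every culture was higher without magnesium, while culture 2 with magnesium exceeded culture 3 without it. With no block the model gave it 1.47 ± 0.47 on the log2 scale (SE), at an adjusted p of 0.671 (edgeR), and 1.65 ± 0.43 (adjusted p = 0.0905) with the block per time point. With no block, leaving out culture 1 gave 1.07 (adjusted p = 0.237, edgeR) and leaving out culture 2 gave 2.41 (adjusted p = 0.394, edgeR). Leaving out culture 3 gave 1.40, which did not pass. For each named gene the untransfected magnesium group had the highest or lowest mean CPM at 24 h. Choosing the genes on the difference between that group and its magnesium-free partner favours such means by itself. In the untransfected magnesium group ENSRNOG00000001575 had 4.60 (SD 4.79), against 0.30 to 1.26 in the other groups, and ENSRNOG00000005574 6.61 (SD 7.15) against 0.41 to 1.28. ENSRNOG00000051563 had 0.15 (SD 0.04) against 0.69 to 1.79, and ENSRNOG00000016330 0.91 (SD 0.90) against 1.55 to 2.56.

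**Figure D3:**
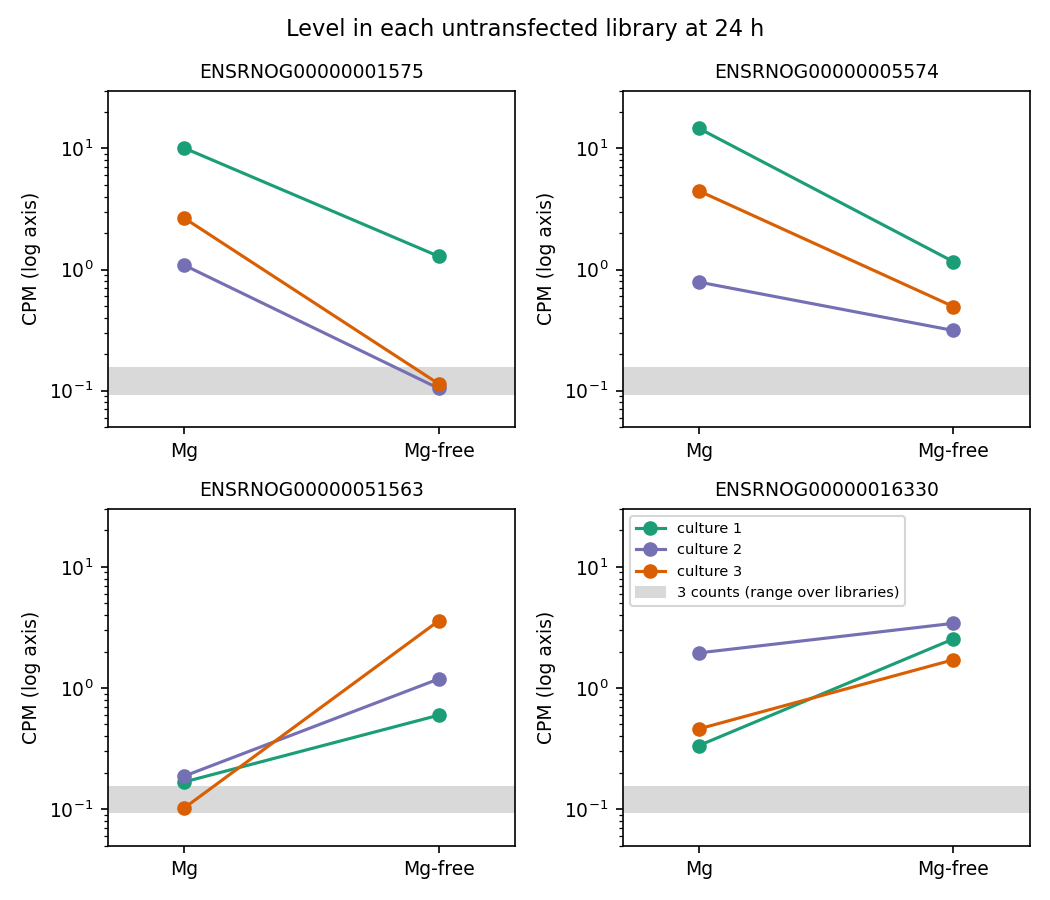
Level in CPM, on a log axis, of 4 genes in each of the 6 libraries; lines join the libraries of 1 culture and the grey band marks 3 counts. In the upper panels all 3 lines fall but the media overlap, and in the lower left panel all 3 magnesium libraries lie near the grey band.

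The 23 lower genes as a set were chosen on these libraries, so their values here are a description. Their log2 fold changes with the block per time point ran from -5.95 to -0.84, with a median of -1.32. The median log2 difference was -1.14 in culture 1, -0.64 in culture 2 and -2.01 in culture 3, and 17 of the 23 had their largest fall in culture 3. In 21 of them all 3 cultures were lower. In 19 of them culture 2 with magnesium lay below culture 1 without it, and 4 had groups that did not overlap, as did 1.66% of all genes tested in that direction. With no block all 23 had an unadjusted p under 0.05, with adjusted p from 0.6015 to 0.873 (edgeR).

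These 23 genes lay on 14 chromosomes. Of these, 8 (34.8%) spanned over 200 kb, against 5.45% of all genes tested. Their median span was 45460 bases against 20440 for all genes tested, and their median exonic length 4148 bases against 2834. Their median mean log2 CPM, 4.32, was near the 4.10 of all genes tested.

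In the other comparisons the 23 genes had smaller median differences, which choosing them on the untransfected 24 h comparison favours by itself. Those libraries were in the same fit and shared its spread, and at 24 h its blocks, so they are not independent of the choice. The median log2 fold change was -0.10 at 2 h (15 of 23 below 0), -0.34 at 6 h (22 of 23 below 0), -0.69 in GFP cultures at 24 h (20 of 23) and -0.23 in rMBD3 cultures at 24 h (15 of 23). In GFP cultures 15 of the 23 were lower in 3 of 3 cultures (18.75% of all genes tested), and 5 were lower at an unadjusted p under 0.05, a direction and threshold met by 4.62% of all genes tested. In rMBD3 cultures 6 of the 23 were lower in 3 of 3 cultures (9.95% of all genes tested), and 1 was lower at that p, against 2.13% of all genes tested.

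**Figure D4:**
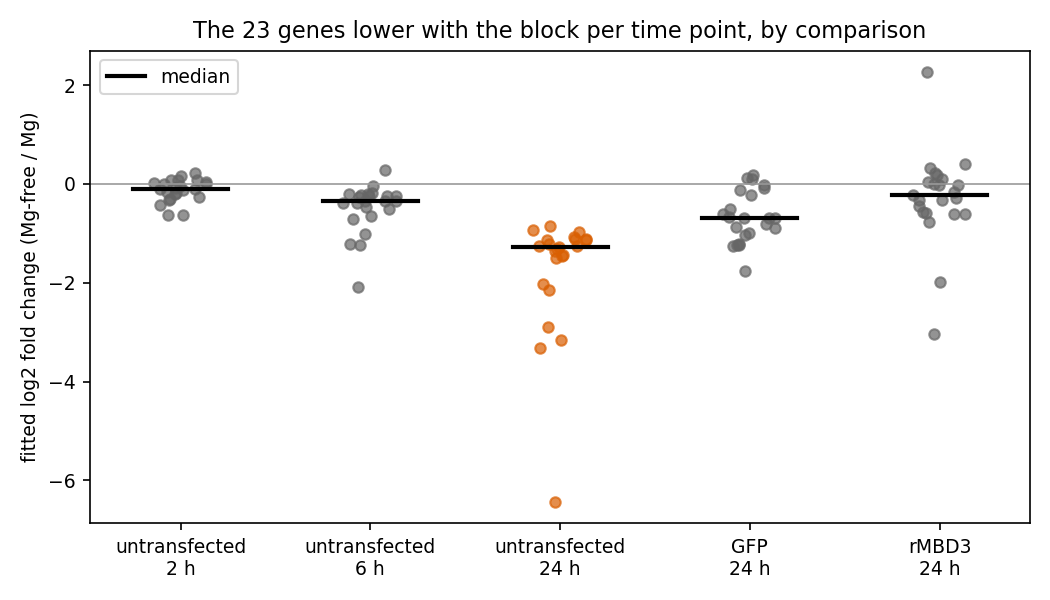
Fitted log2 fold change between the media (no block) for each of the 23 lower genes, by construct and time; each point is a gene, the bar is the median, and orange marks the comparison that chose them. Medians were -0.10 at 2 h, -0.34 at 6 h, -0.69 in GFP cultures and -0.23 in rMBD3 cultures.

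The difference of the 24 h medium effect from the effects in the other conditions was tested directly, as an interaction over all genes. No gene passed an adjusted p of 0.05 (edgeR) against 2 h, against 6 h, against GFP cultures at 24 h or against rMBD3 cultures at 24 h. At an unadjusted p under 0.05 there were 458, 448, 545 and 570 of the 17172 genes, where a share of about 0.05 would be found with no effect. DESeq2 called 5 genes in the comparison with GFP cultures and 0 in the other 3. The biological coefficient of variation was 39.66% without a block and 26.78% with the block per time point, and a p-value above the threshold does not show that the effects were alike.

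Side by side, the same model without a block gave 225 genes at an unadjusted p under 0.05 for the medium at 2 h, 428 at 6 h, 948 at 24 h, 1190 in GFP cultures at 24 h and 539 in rMBD3 cultures at 24 h. With the block per time point, 274 genes passed the adjusted threshold in GFP cultures (264 lower and 10 higher), and 0 passed in each of the other 3. Across genes, the log2 fold changes of untransfected cultures at 24 h correlated at 0.53 with those of GFP cultures, 0.33 with rMBD3 cultures, 0.28 with 6 h and 0.12 with 2 h. The similarity to GFP cultures was seen in culture 3. Its log2 differences correlated at 0.34, 0.65 and 0.42 with those of GFP cultures 1, 2 and 3, whereas those of untransfected cultures 1 and 2 gave -0.16 to 0.11.

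Most genes with a very long genomic span had lower values in magnesium-free medium, though none of them was called without a block. In the nervous system genes of this length include many that code for synaptic adhesion molecules and ion channels, and their transcripts take long to complete. Of 204 tested genes spanning over 500 kb, 176 had a log2 fold change below 0, with a median of -0.51 against -0.03 over all genes tested. At an unadjusted p under 0.05, 29 of them (14.22%) were lower and 0 were higher, against 4.29% and 1.23% of all genes. For the 731 genes of 200 to 500 kb the median was -0.25 (-0.19 without culture 3), and 9.58% were lower at that p. Genes of 100 to 200 kb had a median of -0.07, those of 30 to 100 kb 0.02, and those up to 10 kb -0.07.

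The sign was shared by the cultures and the size was not. Genes over 500 kb had a median log2 difference of -0.33 in culture 1, -0.09 in culture 2 and -0.89 in culture 3. Without culture 3 the fitted median was -0.24. Median log2 CPM of these genes was 4.17, 2.20 and 3.52 with magnesium in cultures 1, 2 and 3, and 3.62, 2.19 and 2.59 without it. Culture 2 was low in both media, and the 2 media overlapped. The share of counts from this class was 0.752%, 0.407% and 0.615% with magnesium and 0.632%, 0.382% and 0.395% without.

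The class median was also below 0 in the other comparisons. The median log2 fold change was -0.19 at 2 h, -0.35 at 6 h, -0.51 in GFP cultures at 24 h and -0.13 in rMBD3 cultures at 24 h. By culture it was -0.39, -0.40 and -0.58 in GFP cultures (cultures 1, 2 and 3). In rMBD3 cultures it was -0.21, 0.0014 and -0.00044. No chromosome stood out in this way: the lowest median of a nuclear chromosome was -0.07, on chromosome 15.

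**Figure D5:**
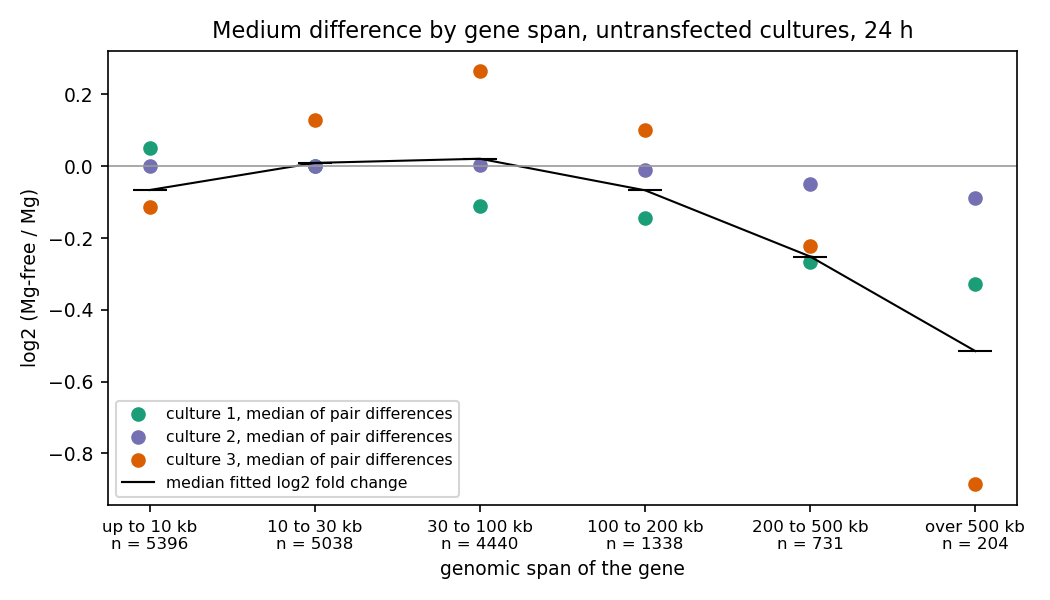
Median log2 ratio of magnesium-free to magnesium medium by genomic span of the gene; coloured points are the medians within each culture and the black line joins the medians of the fitted log2 fold changes. All 3 cultures are below 0 in the classes over 200 kb, with culture 3 at -0.89 and culture 2 at -0.09 for genes over 500 kb.

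Genes of the mitochondrial chromosome, which code for subunits of the respiratory chain and for the RNAs of mitochondrial translation, went in different directions in the 3 cultures. Their share of the counts was 3.16%, 1.75% and 4.90% with magnesium in cultures 1, 2 and 3, and 4.07%, 1.77% and 2.73% without it. It was higher without magnesium in culture 1, close to equal in culture 2 and lower in culture 3. The 25 mitochondrial genes tested had a median log2 fold change of -0.32, with 21 of them below 0 and medians of 0.32, -0.03 and -0.75 in the 3 cultures. Without culture 3 the fitted median was 0.22, so its sign reversed. The median was -0.60 at 2 h, -0.46 at 6 h, -0.44 in GFP cultures at 24 h and -0.33 in rMBD3 cultures at 24 h. Of these 25 genes, 1 was lower at an unadjusted p under 0.05 (4%, against 4.29% of all genes tested). The mitochondrial share moved with the culture 3 results above, and its part in them was not tested.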

How the data were processed

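The authors deposited a table of read counts per gene. Per the file headers, counting used featureCounts 2.0.0 on read pairs with strand setting 2, a minimum mapping quality of 3 and the Ensembl release 105 annotation of mRatBN7.2; per the labels, a stranded mRNA kit and STAR with rn6 were used, so header and labels name different builds. Coordinates are those of the table. The submitters' processing notes also name Trim Galore, Salmon, SAMtools and DESeq2. A deposited table of log2 values was not used.

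Counts were tested with edgeR 4.0.16 in R 4.3.3: filterByExpr (minimum count 10, minimum total 15), TMM scaling, robust quasi-likelihood fits in which each of 18 groups over 54 libraries had its own mean, and Benjamini-Hochberg adjustment over 17172 genes at 0.05. All groups were fitted together so that they share 1 estimate of the spread. Differences within a culture are log2 CPM with a prior count of 2. Span is the distance from a gene's first to last exon base. Alternatives were a replicate block, a block per time point, DESeq2 1.42.0, relative log expression factors, no filter, smaller sets of libraries and leaving out each culture. The scripts were tested on simulated data.

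Pairing rests on the culture number in the labels. Among the 6 libraries, no 2 of the same medium looked like copies, with a chi-square per gene of 33.7 to 357.8. The lowest value was between the magnesium-free libraries of cultures 2 and 3, and the next was 235.3. Libraries of unlike medium and those of the other groups were not compared in this way. The libraries, gene lists and comparisons were chosen with earlier results of these data known. Genes were to be named by the largest change among called genes, then by the smallest p, with a mean log2 CPM of at least 1 and the same sign in 3 of 3 cultures; without symbols, at most 2 per direction are printed. The 29 planned gene lists need symbols and were not used here.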

Additional observations from a re-analysis of the deposited data

Results flagged for a closer look

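The log2 difference of ENSRNOG00000051563 was above 0 in all 3 untransfected cultures at 24 h and below 0 in all 3 GFP cultures at 24 h, where its median was -1.36. The difference between the 2 effects was 4.44 ± 1.26 (SE; adjusted p = 0.791, edgeR). ENSRNOG00000016330 was higher without magnesium in all 3 untransfected cultures at 24 h and lower in all 3 at 6 h, where the median log2 difference was -0.48. The difference between these 2 effects was 2.33 ± 0.65 (SE), and its adjusted p was 1 (edgeR). Neither difference passed the threshold.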

How the results depend on the processing

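The count of 0 genes for the medium at 24 h held with the replicate block (0 genes), no low-count filter, relative log expression factors, the 6 libraries alone and the 18 libraries of 24 h. It became 24 with a block per time point, 2 with DESeq2, and 0 to 264 when a culture was left out. The 24 genes of the block per time point became 22 with relative log expression factors, 1 with no low-count filter, and 0 to 627 when a culture was left out; these 5 settings were added after seeing the data. Of the 24, 19 were among the 627 genes called without culture 1, 14 among the 30 called without culture 2, and 0 were called without culture 3. Those fits reuse libraries that chose the 24, so the overlaps are not independent of the choice. The interaction with GFP cultures gave 5 genes with DESeq2 and 0 to 2 when a culture was left out. The other 3 interactions gave 0 genes under each alternative run. The replicate block changed no call. The 4 named genes kept their direction under all 17 alternatives, but the log2 fold change of ENSRNOG00000016330 ran from 1.07 to 2.47. For genes over 500 kb the median ran from -0.67 to -0.20, lowest without culture 2 and highest without culture 3, both with the block per time point; for genes of 200 to 500 kb it moved from -0.25 to -0.15 without culture 1. The cause of these shifts was not tested. Leaving out a culture removes it from all 18 groups, leaving 2 libraries in each.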
